A study of Mus musculus with 8 samples.

Results

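Rab GTPases are small membrane switches. Bound to GTP, a Rab recruits effectors (tethers, motors and adaptors) that move, dock and fuse vesicles. Exchange factors load the GTP, GTPase-activating proteins end the signal, and the lipid-tailed inactive form is carried back to another membrane. In hippocampal pyramidal neurons, members of the family serve transmitter release, the recycling of glutamate receptors in dendritic spines, lysosomal traffic and the secretory pathway from the soma.

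The genes described here are those of a deposited expression table whose symbols consist of Rab, a number and at most one letter from a to d, with Rab3b left out. There were 48 of them among the table's 15519 genes. The study set 2 groups of place cells side by side, neurons that fire when an animal is at a particular location: cells labelled Day 0 and cells labelled Recurring. The labels do not define the names further, and they give the same wild-type genotype to both groups, with no age, sex or agent. The cells were hippocampal pyramidal cells classed by 2-photon imaging in vivo while mice navigated, then tagged with light, and their nuclear RNA was sequenced in 4 libraries a group. Each title names another mouse, but the number of nuclei per library is not given in the labels, so a p-value here covers no more than the spread among the 8 libraries.

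The deposited values were whole reads times a constant of each gene, so they were not corrected for depth and cannot be compared between genes. Reads were recovered and divided by a size factor per library, which gave the normalized counts used below. Library totals ran from 8374986 to 14887866 reads, with 10718 to 13807 genes detected. All 8 CA1 pyramidal markers were in the table, with a summed normalized count of 26084 to 33702 in Day 0 and 27193 to 45026 in Recurring libraries. By mean over the 8 libraries the largest part of that sum was Zbtb20 (19481.5), then Neurod6 (5127). Of 6 microglial markers, 3 were in the table (Ctss, C1qa and C1qb), and their sum was 0 to 310.2 in Day 0 and 478.8 to 3555 in Recurring libraries, without overlap. The 7 astrocyte markers present summed to 2231 to 3414 in Day 0 and 2345 to 14980 in Recurring libraries, highest in Recurring replicate 1. The markers did not move together: in that library Slc1a3 stood at 8162 and Gfap at 34.1. Slc1a3 and Plpp3 were higher in every Recurring library than in any Day 0 library, as were 1.24% of all genes tested. For Gfap, Aldoc, Gja1, Slc1a2 and Aldh1l1 the groups overlapped. The 8 interneuron markers present summed to 8754 in Recurring replicate 2 and to 112.7 to 3429 in the other libraries. The 6 oligodendrocyte markers summed to 1354 to 9797 in Day 0 and 1435 to 6011 in Recurring libraries. Sums of 3 CA3 markers were 3115 to 16542 and 4101 to 12118. The oligodendrocyte and CA3 sums were both highest in Day 0 replicate 4. By mean, the CA3 sum was largely Chgb (6844, beside 230 for Grik4 and 224 for Nectin3). For 4 dentate granule markers the sums were 2590 to 3487 and 1816 to 5696, highest in Recurring replicate 2. By mean, these sums were largely Rfx3 (2907), beside 406 for Dock10, 173 for Prox1 and 13.4 for C1ql2. Such a sum can therefore follow 1 gene rather than the amount of a cell type. The part of these other cell types in the differences below was not tested. In such bulk libraries, fewer cells of a type and less RNA per cell cannot be told apart.

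The design sets place cells labelled Recurring against cells labelled Day 0. No Rab gene separated the 2 groups. In limma's fit across all genes, 0 of the 43 Rab genes tested passed an adjusted p of 0.05, where 0 of 11078 genes (0%) did. An unadjusted p under 0.05 was reached by 0 Rab genes, beside 3.62% of all genes tested (1.88% higher and 1.74% lower), and 0 had groups without overlap, beside 2.41% (1.24% higher and 1.17% lower). Limma-voom on the recovered reads also called 0 Rab genes. The fitted difference, Recurring minus Day 0 in log2(normalized count + 1), was above 0 for 13 and below 0 for 30 of the 43. Over all genes it was above 0 for 50.1% and below 0 for 49.9%. Its median was -0.57 for the Rab genes and 0.005 for all genes, and without Recurring replicate 1 these were -0.16 and 0.14, with 18 Rab genes above and 25 below 0. Without Recurring replicate 3 the Rab median was -0.91 and that of all genes -0.09. With 1 library left out, the median of all genes ranged from -0.14 (without Day 0 replicate 4) to 0.14 (without Recurring replicate 1). The standard error of a single Rab gene ran from 0.57 to 2.80, with a median of 1.74, so the 4 libraries a group could not settle changes of the size seen. For 0 of the 43 did the 95% interval lie within 1 log2 unit of 0, as it did for 1.98% of all genes, so these results do not show that the groups are alike.

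**Figure D1:**
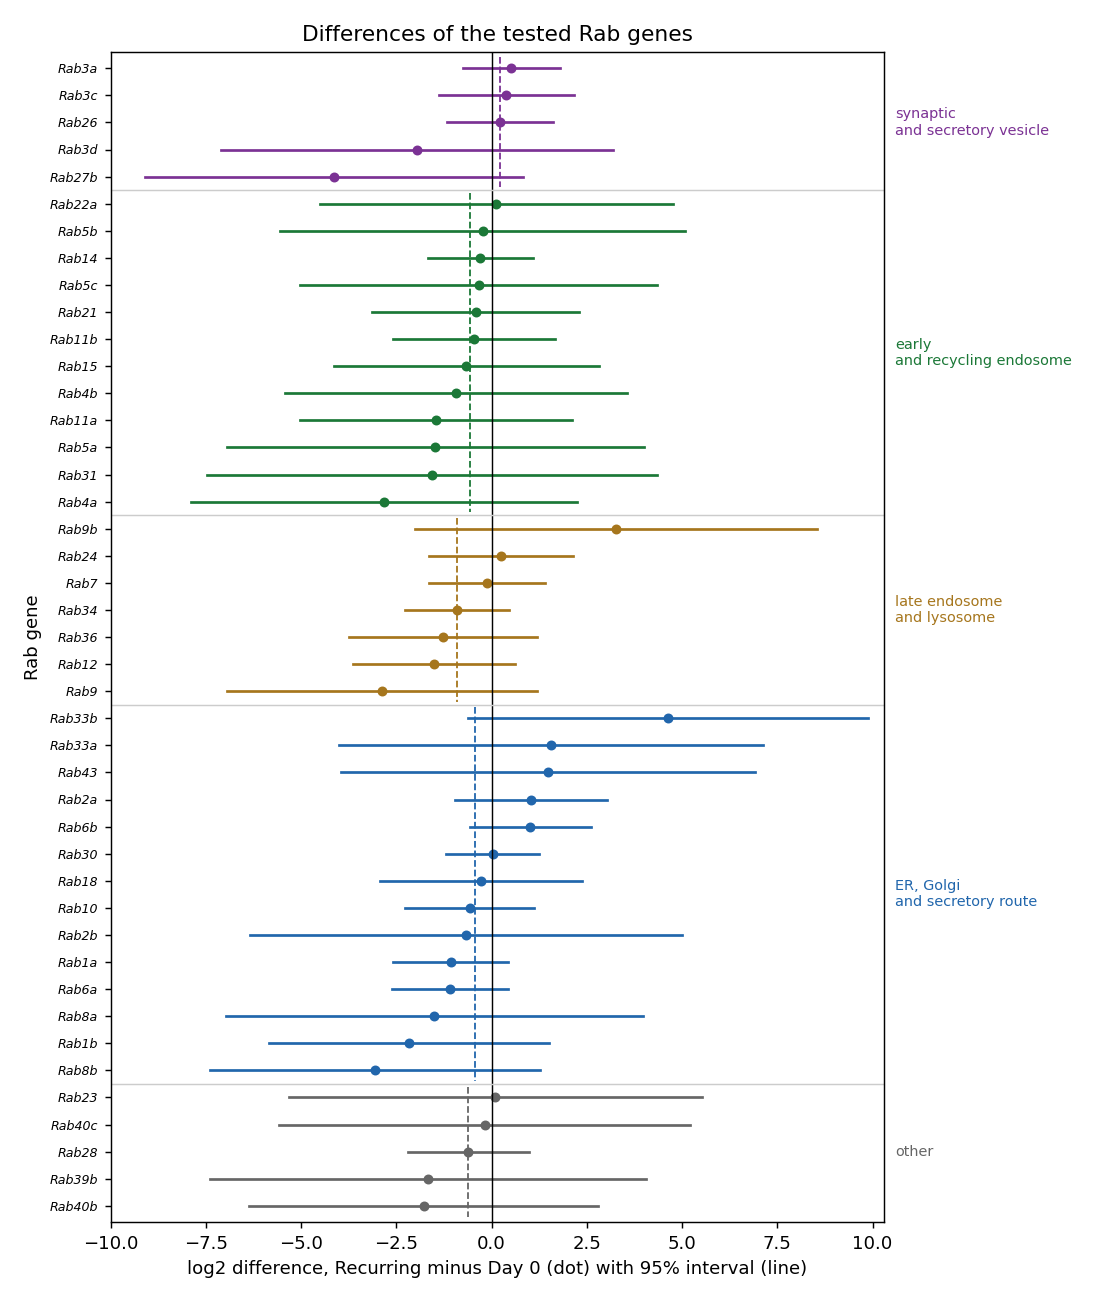
Fitted difference (Recurring minus Day 0, log2 units, horizontal axis) of each of the 43 Rab genes tested, grouped by role, with points for limma's estimate and bars for its 95% interval. Every interval crosses 0, and 30 of the 43 points lie below it.

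Per kilobase of exon, the highest mean level over the 8 libraries was that of Rab3a, at 848 normalized counts per kilobase, followed by Rab40b (585), Rab26 (519.6), Rab34 (514) and Rab6a (376). Rab27a was the lowest of the 48, at 1.17. Between neighbours in this order the libraries overlapped: Rab40b, the second, ranged from 0 to 4027 normalized counts across libraries. A Rab gene's reads were often absent from whole libraries. Of the 43 tested genes 18 (41.9%) had 0 reads in at least 1 library, near the 45.6% of all genes. The 25 read in every library had a median difference of -0.42 and a median standard error of 0.89. The other 18 had a median difference of -1.49 and a median standard error of 2.54. Over all genes, those read in every library had a median difference of 0.001 and a median standard error of 0.92. Genes at 0 in some library had 0.016 and 2.35. The table held 5 further members under the filter (a normalized count of 10 in at least 4 libraries): Rab27a, Rab35, Rab29, Rab13 and Rab42, named here to complete the count. Rab35, of endocytic recycling, reached 338 in Recurring replicate 4 and 52.5 in Recurring replicate 2, with at most 4.78 elsewhere. Rab29, a lysosomal Rab linked to the kinase LRRK2, reached 442 in Recurring replicate 4 and at most 65.4 elsewhere.

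**Figure D2:**
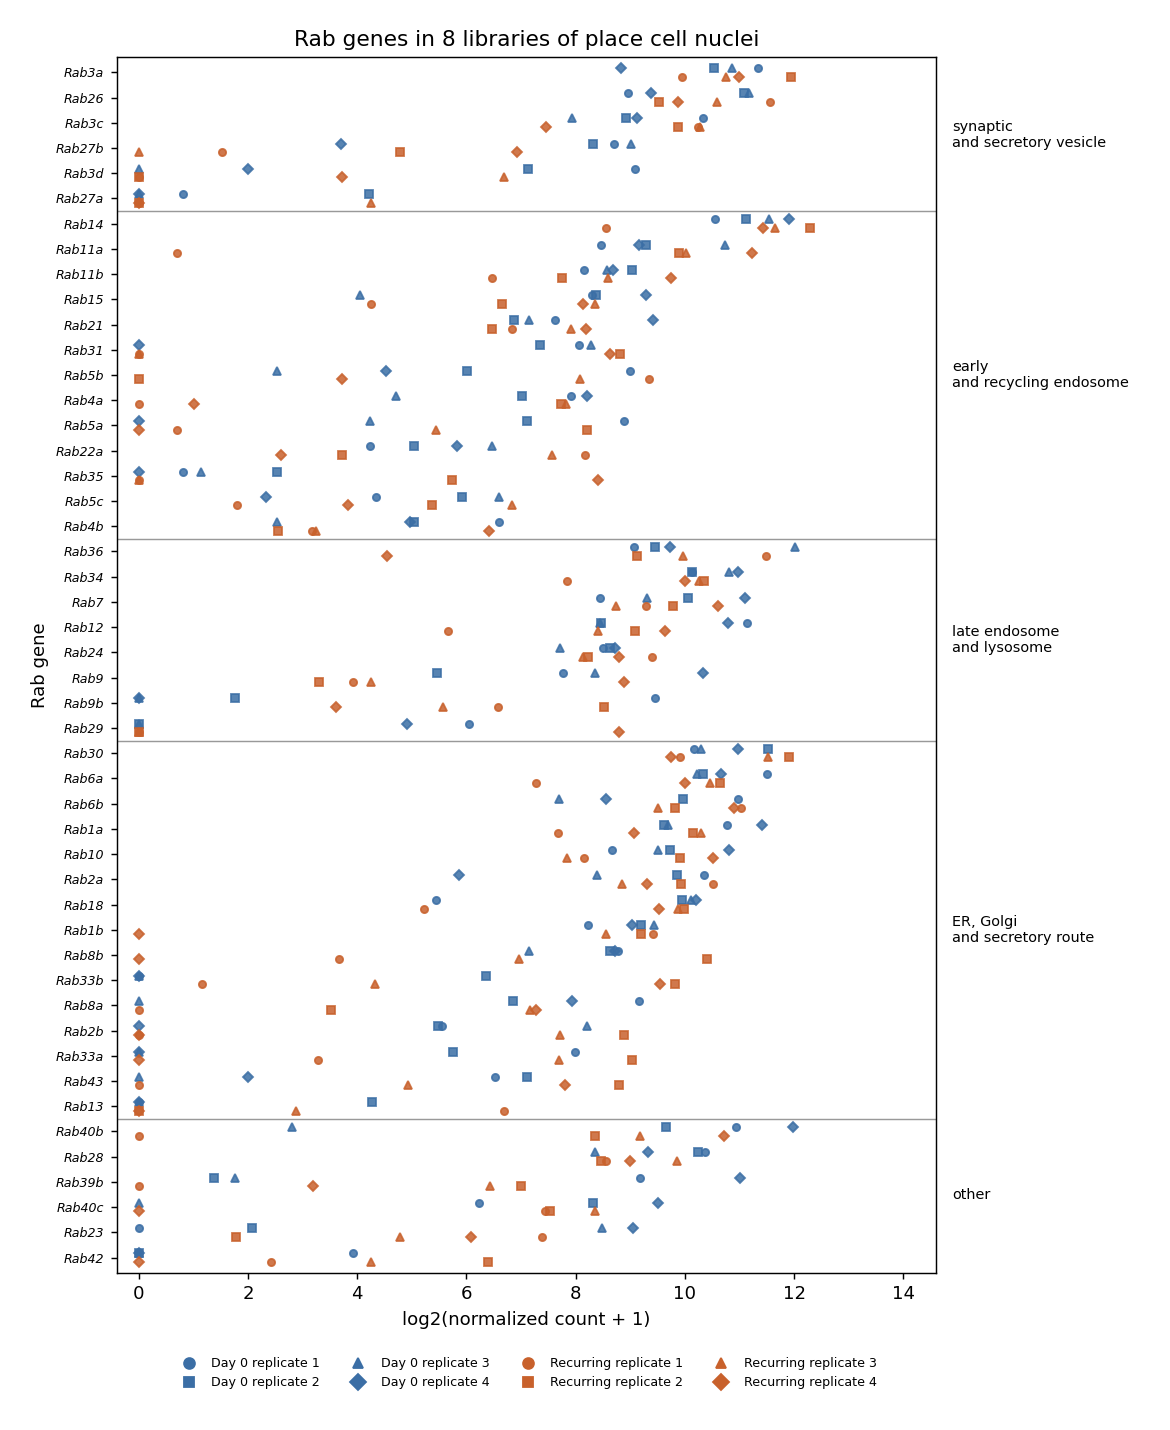
Level of the 48 Rab genes (rows, by role) in each of the 8 libraries, as log2(normalized count + 1) on the horizontal axis. Color marks the group and marker shape the replicate. Recurring replicate 1 holds 11 members at 0 reads, as does Day 0 replicate 3.

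Rabs of synaptic and secretory vesicles bind vesicles near release sites and act in their docking and priming. Of 6 members, 5 were tested, 3 with a difference above and 2 below 0, and their median was 0.23 (median standard error 0.84). The sign of that median turned when 1 library was left out, to -0.16 without Recurring replicate 1, -0.16 without Day 0 replicate 1 and -0.02 without Day 0 replicate 4. It was highest without Recurring replicate 4 (0.40). Over all genes the median without Day 0 replicate 4 was -0.14, below that of the class. Rab3a, the main Rab of synaptic vesicles in the brain, had normalized counts of 2590.4, 1488, 1867 and 455 in Day 0 replicates 1 to 4 and 987, 3946, 1729 and 2031 in Recurring replicates 1 to 4. The lowest value was in Day 0 replicate 4 and the highest in Recurring replicate 2, and the other 6 lay between them in no order of group. On the log2 scale Day 0 averaged 10.39 ± 1.09 and Recurring 10.91 ± 0.82 (mean and SD, n = 4), and limma's difference was 0.52 (SE 0.60, 95% interval -0.76 to 1.79).

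Rab3c, its paralog on the same vesicles, had 1295, 483, 243 and 558 in Day 0 and 1203, 939.7, 1247 and 176 in Recurring libraries. In Recurring libraries 3 values lay between the highest Day 0 value and the other 3, and replicate 4 was below all of Day 0. The difference was 0.39 (SE 0.84, 95% interval -1.38 to 2.15). Rab26, which marks synaptic vesicles and links them to autophagy, had 499.6, 2156, 2321 and 668 against 3004, 733, 1537 and 937. Each group held a high pair and a low pair, and the difference was 0.23 (SE 0.66, 95% interval -1.16 to 1.62). Rab27b, of secretory granules and of synaptic vesicles, had 417, 317, 514 and 12 against 1.86, 26.6, 0 and 121. Here 3 Day 0 libraries stood above all Recurring ones, while Day 0 replicate 4 lay below Recurring replicates 2 and 4. The difference was -4.12 (SE 2.35, 95% interval -9.08 to 0.83), with an unadjusted limma p of 0.0973 and an adjusted p of 0.981. Rab3d, known from exocrine secretory granules, was at 0 in 3 libraries and reached 541 in Day 0 replicate 1. Rab27a had reads in 3 libraries and reached at most 18.0.

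Endocytosed membrane first enters early endosomes, where Rab5 acts, and returns to the surface by a fast route through Rab4 and a slow one through Rab11. This was the class with the most differences on 1 side: of 12 members tested (13 in the table) 11 were below 0, with a median of -0.56 and a median standard error of 2.16. Without Recurring replicate 1 there were 7 below and 5 above 0, with a median of -0.18, and without Recurring replicate 3 the median was -0.93. The class's median log2 level in Recurring replicate 1 was 3.71, against 6.53 to 8.11 in the other 7. None of the 12 passed the test.

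Rab5a, which drives the fusion of early endosomes, had 474, 137, 17.9 and 0 in Day 0 and 0.619, 295, 42.4 and 0 in Recurring libraries. Both groups held 1 library at 0 and 1 far above the rest, and the difference was -1.47 (SE 2.59, 95% interval -6.95 to 4.0). Rab4a, of fast recycling, had 241, 129, 25.1 and 295 against 0, 211, 225 and 1.01. The Recurring libraries split into a pair within the Day 0 range and a pair at 0 or 1 read, while all Day 0 libraries had reads. The difference was -2.83 (SE 2.40, 95% interval -7.90 to 2.25). Rab11a, which carries glutamate receptors from recycling endosomes into spines, had 352, 624, 1700.5 and 570.3 in Day 0 and 0.619, 949, 1039 and 2390.3 in Recurring libraries. That lowest value, in Recurring replicate 1, stood for 1 read, and the other 3 Recurring libraries were all above 3 of the 4 Day 0 libraries. The difference was -1.45 (SE 1.69, 95% interval -5.02 to 2.12) with all libraries and 0.97 without Recurring replicate 1. Rab14, which acts between endosomes and the Golgi, had the highest mean count of the family, but ranked 16 of the 48 per kilobase of exon. Its values were 1499.7, 2219, 2974 and 3821 against 373, 5037, 3200.3 and 2753. Recurring replicate 1 was again the lowest and Recurring replicate 2 the highest. The difference was -0.30 (SE 0.65, 95% interval -1.68 to 1.08), and 0.51 without Recurring replicate 1. Among the other members of the class, mean levels ran from 11.9 normalized counts per kilobase for Rab22a, the 1 tested member of the class with a difference above 0 (0.12, SE 2.19), to 64.0 for Rab11b.

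Promoters of the Rab genes were searched for 3 short motifs on either strand, in windows from 250 bases before to 50 after the start (RefSeq, GRCm38.p6), which were at hand for 41 of the 48 members. The palindrome TCACGTGA, which holds an E-box and is the core of the element that the lysosomal regulator TFEB binds, stood in 3 of the 41 (7.32%), those of Rab5a, Rab21 and Rab24, and in 1.99% of 9810 windows of the table's genes. The cAMP response element TGACGTCA was in 1 (2.44%), that of Rab5a, against 3.34%. The letters TATAAA were in 3 (7.32%), against 7.26%. The median number of CG pairs was 23 in the members' windows and 21 in all. A match describes letters only. None of the 3 genes passed the test, with differences of -1.47 (SE 2.59) for Rab5a, -0.42 (SE 1.29) for Rab21 and 0.25 (SE 0.89) for Rab24. The 2 early endosomal promoters with the palindrome are shown as the 250 bases before the start, 5′ to 3′ on the gene's strand, with both 8-letter motifs in capitals. They lie at chr17:53478984-53479233 (plus strand) for Rab5a and at chr10:115315592-115315841 (minus strand) for Rab21.
Rab5a: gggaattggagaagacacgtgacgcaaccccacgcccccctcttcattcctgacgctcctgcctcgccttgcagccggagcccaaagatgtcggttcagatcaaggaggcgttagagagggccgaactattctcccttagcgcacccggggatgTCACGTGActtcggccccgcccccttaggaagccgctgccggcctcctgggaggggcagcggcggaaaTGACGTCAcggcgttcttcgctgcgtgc
Rab21: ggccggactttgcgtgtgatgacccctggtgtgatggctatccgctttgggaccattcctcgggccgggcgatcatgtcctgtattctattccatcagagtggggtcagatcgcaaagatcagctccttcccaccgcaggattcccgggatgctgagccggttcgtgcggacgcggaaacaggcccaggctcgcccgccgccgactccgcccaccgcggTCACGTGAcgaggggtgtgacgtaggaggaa
In Rab5a the palindrome begins 96 bases and the cAMP response element 28 bases before the start, and in Rab21 the palindrome begins 31 bases before it.

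Late endosomes and lysosomes receive cargo for degradation, and Rab7 is their main switch. Of 8 members, 7 were tested, 2 above and 5 below 0, with a median of -0.90 (median standard error 1.01), which ranged from -1.14 without Recurring replicate 2 to -0.31 without Recurring replicate 1. Rab7 itself had 348, 1065, 636 and 2183 in Day 0 and 627, 881, 428 and 1553 in Recurring libraries. The highest value and the lowest were both in Day 0, and the difference was -0.12 (SE 0.72, 95% interval -1.64 to 1.40). Rab34, which positions lysosomes and acts in cilium formation, had 1126, 1114, 1786.5 and 2012 against 229, 1303, 1222 and 1022. In all, 7 libraries lay within a 2-fold range and Recurring replicate 1 stood below it. The difference was -0.90 (SE 0.65, 95% interval -2.27 to 0.47), and -0.31 without that library.

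Rab12, of transport from recycling endosomes to lysosomes, had 2249, 352, 347 and 1772 against 49.5, 546, 340.05 and 794. A pair of Day 0 libraries stood above the rest, Recurring replicate 1 was the lowest, and the difference was -1.51 (SE 1.01, 95% interval -3.64 to 0.63). Rab9, of retrieval from late endosomes to the Golgi, had 216, 43.1, 325 and 1292 against 14.2, 8.88, 18.0 and 469.7. In 3 Recurring libraries it was below every Day 0 value, and Recurring replicate 4 was above 3 of them. The difference was -2.89 (SE 1.93, 95% interval -6.95 to 1.18). Its paralog Rab9b had 702, 2.39, 0 and 0 against 94.1, 368, 46.6 and 11.2, with all 4 Recurring libraries above 3 of the Day 0 ones and below the fourth. The log2 difference was 3.26 (SE 2.50, 95% interval -2.02 to 8.55), while the mean normalized count was 176 in Day 0 and 130.01 in Recurring libraries. Rab36, which shares lysosomal effectors with Rab34, had 533, 696, 4156 and 844 against 2874, 559, 996 and 22.3. Each group had 1 library far above its others, the lowest was Recurring replicate 4, and the difference was -1.28 (SE 1.17, 95% interval -3.74 to 1.18), or 0.13 without that library. Rab24, of autophagy, was more even, at 359, 393, 209 and 422 against 674, 299.5, 282 and 444, but 62.4% of its exon bases overlap Prelid1 on the other strand.

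The secretory class spans the route from the endoplasmic reticulum through the Golgi to the plasma membrane. Of 15 members, 14 were tested, 6 above and 8 below 0, with a median of -0.42 (median standard error 1.5). The median changed sign without Recurring replicate 1 (0.52) and without Recurring replicate 4 (0.23), was at 0.0006 without Day 0 replicate 3, and was lowest without Recurring replicate 2 (-0.78). Rab1a, of transport from the endoplasmic reticulum to the Golgi, had 1738, 789.5, 821 and 2725 in Day 0 and 204, 1142, 1261 and 534 in Recurring libraries. The 2 highest values were in Day 0 and the lowest in Recurring replicate 1, and the difference was -1.07 (SE 0.72, 95% interval -2.59 to 0.44). Rab2a, of the early Golgi, had 1298, 920.3, 335 and 57.1 against 1455, 971, 461 and 629. The 4 Recurring values lay within the span of Day 0 but for the highest, and the difference was 1.04 (SE 0.95, 95% interval -0.97 to 3.04).

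Rab6a, of traffic within and out of the Golgi, had 2916, 1294, 1187 and 1622 against 153, 1591, 1414 and 1024. All of Day 0 lay in one range with 3 Recurring libraries, and Recurring replicate 1 was well below it. The difference was -1.09 (SE 0.72, 95% interval -2.60 to 0.43), and -0.31 without that library. The neuronal paralog Rab6b had 2017, 1003, 206 and 375 against 2093, 899, 729 and 1915. The Recurring libraries were higher than 2 of Day 0, replicate 1 included, and the difference was 1.02 (SE 0.75, 95% interval -0.57 to 2.60). Rab30, a Golgi Rab, had 1153, 2956, 1258 and 2017 against 961, 3856, 2943 and 859, a spread shared by both groups. Its difference of 0.03 (SE 0.57, 95% interval -1.18 to 1.24) had the smallest standard error of the family.

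Rab8b, of transport to the plasma membrane, had 439, 396, 141 and 419.96 against 11.8, 1351, 124 and 0. In Day 0, 3 values were close together and replicate 3 was lower, while the Recurring libraries spanned the highest and the lowest of the 8, and the difference was -3.06 (SE 2.06, 95% interval -7.40 to 1.28). Rab33b, which recruits autophagy proteins to Golgi membranes, had the lowest unadjusted p of the family. It was at 0, 80.5, 0 and 0 in Day 0 and 1.24, 901, 19.1 and 747 in Recurring libraries. Thus 1 Day 0 library and all 4 Recurring libraries had reads, although Recurring replicates 1 and 3 were below that Day 0 library. The difference was 4.63 (SE 2.48, 95% interval -0.62 to 9.87), with an unadjusted limma p of 0.080 and an adjusted p of 0.981. Rab33a, its neuronal paralog, had 254, 52.6, 0 and 0 against 8.67, 522, 207 and 0, with 3 libraries at 0 over both groups and a difference of 1.57 (SE 2.64, 95% interval -4.0 to 7.13). Of the other tested members of the class, Rab10 and Rab18 had reads in every library and Rab1b in all but Recurring replicate 4, with differences of -0.57, -0.27 and -2.18.

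The 6 remaining genes fall in none of these routes by their best known role. Of 5 tested, 1 was above and 4 below 0, with a median of -0.61 and a median standard error of 2.56, and the median was 0.05 without Day 0 replicate 4 and -2.19 without Day 0 replicate 3. Rab40b, which joins a ubiquitin ligase through its SOCS box, had 1970.3, 805, 5.97 and 4027 in Day 0 and 0, 325, 582 and 1675 in Recurring libraries. Each group held values near 0 and values among the highest of the family. The difference was -1.78 (SE 2.16, 95% interval -6.35 to 2.79), or 0.57 without Recurring replicate 1. Rab28, of cilia, was read in all libraries and differed by -0.61. Rab23, which restrains Hedgehog signalling, and Rab39b, a gene of X-linked intellectual disability, were each near 0 in some libraries of both groups and differed by 0.10 and -1.68.

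Many of the low values fell in Recurring replicate 1. Among the 25 Rab genes read in all libraries, Recurring replicate 1 was the lowest of the 8 for 9 (36%), while over all 6022 genes read in every library it was the lowest for 16.1%. The 9 came from the endosomal, lysosomal and secretory classes: Rab11a, Rab11b, Rab12, Rab14, Rab18, Rab1a, Rab34, Rab5c and Rab6a. The same library was the highest for 5 of the 25, beside 16.4% of all such genes, namely Rab22a, Rab24, Rab26, Rab2a and Rab6b. It was the deepest library and had the second lowest number of genes detected, 10904. Rab genes took 0.195% of its reads, against 0.275% to 0.333% in the other Recurring libraries and 0.256% to 0.365% in Day 0. By group the share was 0.320% ± 0.048 in Day 0 and 0.269% ± 0.056 in Recurring libraries (SD, n = 4). The number of the 48 genes with reads was 41.5 ± 4.65 and 40.8 ± 3.30.

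**Figure D3:**
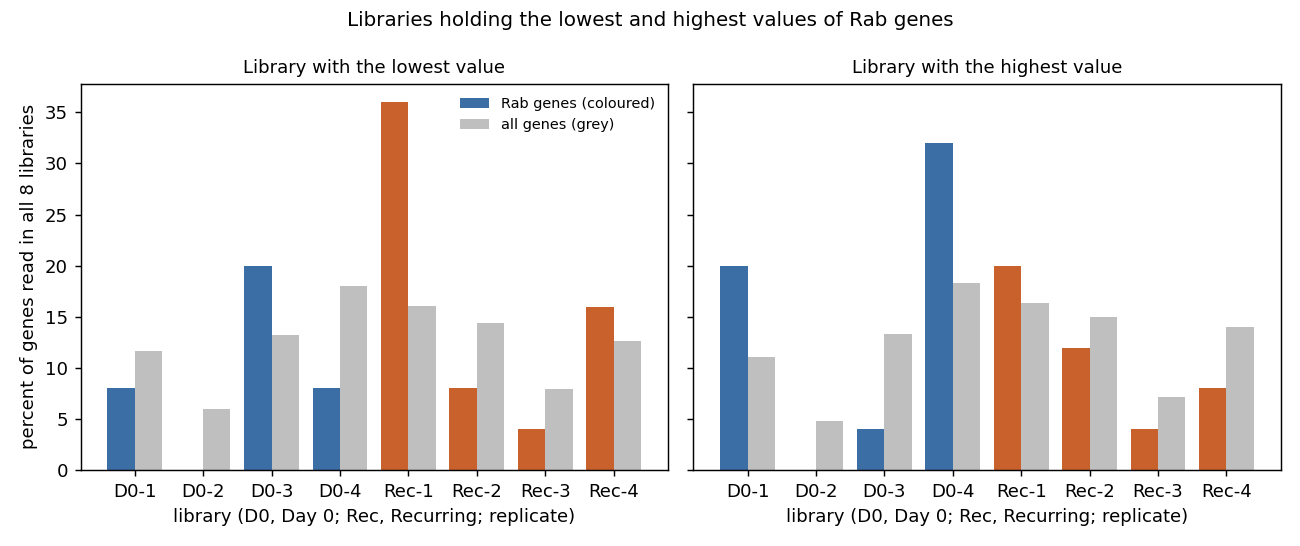
For each library, the percent of the 25 Rab genes read in all 8 libraries, and of all 6022 such genes, for which it held the lowest value (one panel) and the highest value (the other). Recurring replicate 1 holds the lowest value for 36% of the Rab genes and 16.1% of all genes, and Day 0 replicate 4 the highest for 8 of the 25 and for 18.3% of all genes.

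Shares within a family of paralogs do not depend on a library's depth. Rab3b was left out, so shares in the Rab3 family are of Rab3a, Rab3c and Rab3d only. Rab3a took 81.3% to 97.7% of reads per kilobase in Day 0 and 81.6% to 98.1% in Recurring libraries. Rab3c took 1.57% to 18.4% and Rab3d 0% to 9.20% over the 8 libraries. Rab2a took 68.8% to 100% of its pair in Day 0 and 80.0% to 100% in Recurring libraries. Rab11a took 71.0% to 90.1% of its pair in 7 libraries and 1.43% in Recurring replicate 1, where the family had 142 reads. Rab6a took 41.9% to 88.6% in 7 libraries and 8.98% in Recurring replicate 1. The pair had no fewer than 1165 reads in any library. Rab1a took 15.1% of its pair in that library and 41.7% to 100% in the others. In the Rab5 family no member led: Rab5a took from 0% to 40.9% in Day 0 and 0% to 75.3% in Recurring libraries, Rab5b 2.36% to 74.2% and 0% to 99.2%, and Rab5c 4.0% to 90.6% and 0.728% to 67.5%. The family had as few as 25 reads in a library.

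**Figure D4:**
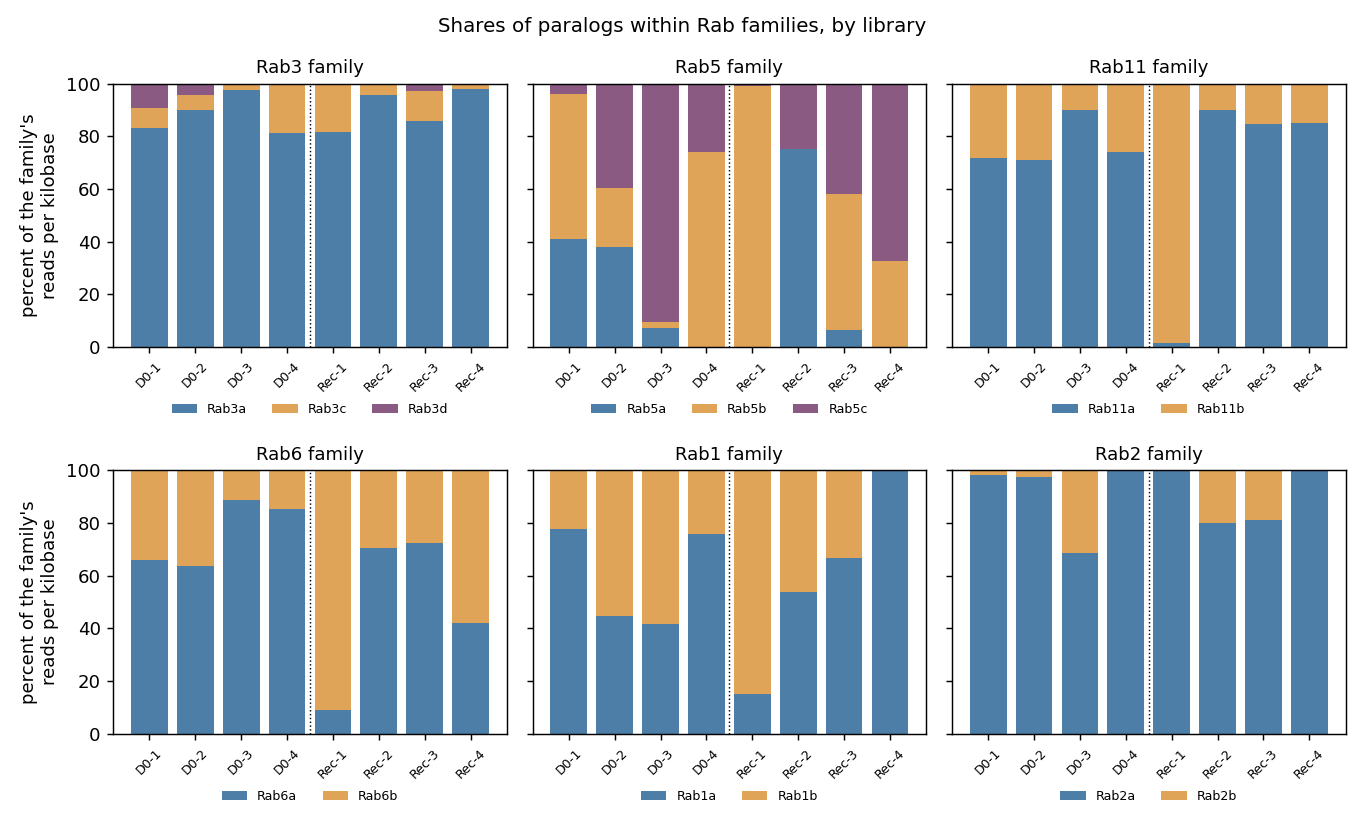
Percent of a family's reads per kilobase of exon (vertical axis) taken by each paralog in each library, for 6 Rab families (Rab3 without Rab3b), with Day 0 left and Recurring right of the dotted line. Rab3a holds 81.3% or more in every library, and Rab11a, Rab6a and Rab1a are at their lowest shares in Recurring replicate 1.

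Genes that load, switch off, recycle or read the Rabs were taken as 7 lists of 132 genes, of which 114 were in the table and 101 tested. Limma called 0 of the 101. Their differences were above 0 for 45 and below 0 for 56, with a median of -0.13. An unadjusted p under 0.05 was reached by 5 of 101, 3 higher and 2 lower, beside 1.88% and 1.74% of all genes in those directions. Groups did not overlap for 3 higher and 2 lower genes, beside 1.24% and 1.17%.

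The recycling machinery returns Rabs between membranes, and its 7 tested genes were split 3 and 4 (median -0.31). Chm, which presents new Rabs for lipid attachment, had 1306, 707, 983 and 4941 in Day 0 and 2187, 415, 719 and 515 in Recurring libraries. The highest value was in Day 0 replicate 4, Recurring replicates 2 and 4 were below all of Day 0, and the difference was -0.93 (SE 0.72, 95% interval -2.45 to 0.58). Of 30 exchange factor genes 11 were above and 19 below 0 (median -0.42). C9orf72, of a DENN-domain complex acting in autophagy, had 99.6, 333, 33.5 and 505 against 123, 1436, 1272 and 730.5. The 3 highest values were in Recurring libraries, and the difference was 2.04 (SE 1.18, 95% interval -0.45 to 4.52). Dennd6b, with the highest mean count of the list (not per length), differed by 0.10.

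The 28 GTPase-activating protein genes were split 15 and 13 (median 0.10), and held 3 of the 5 genes with a low unadjusted p. Rabgap1l, a TBC-domain member, had 630.5, 2109, 2119.9 and 1242 in Day 0 and 3296, 3833, 4163 and 4201 in Recurring libraries. Every Recurring library was above every Day 0 library. The difference was 1.49 (SE 0.46, 95% interval 0.52 to 2.47), with an unadjusted limma p of 0.00487 and an adjusted p of 0.981. Rab3gap1, the catalytic subunit of the GTPase-activating protein for Rab3, and Sgsm3, a TBC-domain gene, were picked with their values known. They had differences of -1.75 (SE 0.78) and 3.44 (SE 1.49). The groups overlapped for both, and limma's adjusted p was 0.981 for each.

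Effectors of secretory vesicles were split 3 and 4 (7 tested, median -0.04). Myrip, which ties Rab27 to myosin, had 995, 160.3, 734 and 473 against 869.6, 0, 232 and 1.01. All Day 0 libraries had reads, while a pair of Recurring libraries was at or near 0, and the difference was -4.27 (SE 2.15, 95% interval -8.81 to 0.28). Dmxl2, a synaptic vesicle protein that binds regulators of Rab3, had the highest mean count of that list (not per length) and differed by -0.04 (SE 0.36). Endosomal effectors were split 8 and 9 (17 tested, median -0.14). Osbpl1a, a cholesterol-sensing effector of Rab7, had 331, 429.8, 41.8 and 38.1 in Day 0 and 840.5, 1183.5, 631 and 801.5 in Recurring libraries, without overlap. The difference was 2.76 (SE 1.08, 95% interval 0.48 to 5.04), with an adjusted limma p of 0.981.

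In these lists, 4 other genes were chosen after their values were seen, for a low unadjusted p or for groups without overlap. Rab11fip4, a Rab11 effector, was lower in every Recurring library, at 1033.5, 692, 1575 and 1006 against 523, 256, 689 and 303, and differed by -1.33 (SE 0.70). Rabep1, an effector of Rab5, differed by -1.35 (SE 0.61) with 1 Recurring library inside the Day 0 range. Rilpl1, an effector of phosphorylated Rabs, was higher in every Recurring library, at 0, 85.3, 0 and 140.3 against 172, 198, 242 and 219, and the exchange factor gene Ric1 was lower in every one, with a difference of -0.79. Rab11fip3, with the highest mean count of the endosomal effector list (not per length), differed by -0.68.

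Golgi effectors were split 5 and 6 (11 tested, median -0.13). Uso1, the tether that Rab1 recruits, had 1233, 794, 153 and 29.1 against 943, 807, 1675 and 1217. Day 0 replicates 3 and 4 were the lowest, and the difference was 2.11 (SE 1.03, 95% interval -0.07 to 4.28). Bicd1, which joins Rab6 vesicles to dynein, differed by 0.25 (SE 0.58). Of the Rab kinases and their phosphatase 2 genes were tested and both were below 0. Ppm1h, which removes LRRK2's phosphates from Rabs, had 845, 698, 871 and 1177 against 83.6, 2013, 497 and 244.5, with Recurring replicate 2 the highest and the 3 others below all of Day 0. The difference was -1.22 (SE 0.90, 95% interval -3.12 to 0.69).

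Overlapping genes limit some of these values. Whether counting used strand is not given in the sources used here, and strand would not separate genes on the same one. In GENCODE vM21, an annotation of an earlier build than the authors', 18 of the 48 Rab genes share exon bases with another gene. Among those described, Rab6a shares 19.0% with Mrpl48, Rab33b 18.7% with a predicted gene and Rab7 7.82% with an antisense gene. These lie on the other strand, while Rab26 shares 9.36% with Traf7 on the same strand. Rab43 and Rab4b share 75.4% and 65.0% with genes on the same strand, and Rab2b 59.3% with a gene on the other strand.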

How the data were processed

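Nuclear RNA of 4 Day 0 and 4 Recurring place cell libraries was made into SMART-Seq mRNA LP libraries, per the labels' protocols. STAR, HTSeq and GRCm39 are named in the submitters' processing notes, with no versions. The deposited signal is 1 value per library for 15519 genes, not log transformed. Within a gene it was whole reads times a constant (median 1.107, 1st percentile 0.2177, 99th 7.715), which matched trimmed-mean scaling factors taken across genes in place of libraries. Division gave whole reads (tolerance 0.1 read) for 95910 of 95910 values above 0. The constants were sought first as divisors of a gene's values, so that count is no independent test of them. The step was tested on simulated data whose constants followed the same scaling rule. Depth was then removed with a median-of-ratios size factor per library (0.837 to 1.615).

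Groups were compared with limma 3.58.1 in R 4.3.3 on log2(normalized count + 1) with a variance trend, for the 11078 genes that reached a normalized count of 10 in 4 libraries or more. P-values were adjusted over all of them by Benjamini-Hochberg, with a threshold of 0.05. Exon lengths came from GENCODE vM21. Named were the 12 Rab genes with the highest means, the 6 in each direction with the smallest p, the smallest p of each role class, 8 set members, and 2 genes of each regulator list (smallest p, highest mean), of which 1 gene is not reported here. The members, role classes and regulator lists were chosen with earlier results of these data known. Alternatives were 2 pseudocounts, 2 filters, 2 scalings, limma without a trend, voom, array weights and leaving out each library.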

Additional observations from a re-analysis of the deposited data

Results flagged for a closer look

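In groups of 4 libraries, a value was set apart when its gap to the nearest other, over the group's range on the log2 scale, passed Dixon's 95% critical value for 4 samples. Of 80 sets of 4 values examined (a gene or a median level in 1 group), 9 held a value set apart, while chance sets one apart in about 1 in 20 sets. Recurring replicate 1 was the lowest of its group for Rab11a (gap 0.8736 of the range, 1 read), for Rab34 (0.8601, a normalized count of 229) and for the median log2 level of the early and recycling endosome class (0.8385, at 3.71). Recurring replicate 4 was the lowest for Rab3c (0.8555, at 176) and the highest for Rab9 (0.8306, at 469.7). Recurring replicate 3 was the highest for Dennd6b (0.9113, at 5459). In Day 0, replicate 2 was the highest for Rab33b (1, at 80.5 with the other 3 at 0). Replicate 3 was the lowest for Rab8b (0.9104, at 141), and replicate 4 the lowest for Rab27b (0.8686, at 12).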

How the results depend on the processing

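No paired analysis was possible because the replicate numbers follow the order of deposit and pair no libraries. Under each of 17 alternatives 0 Rab genes and 0 regulator or effector genes were called. Over all genes the count was 0 except without a variance trend, where 2 genes were called, neither of them a Rab gene. The median difference of the Rab genes stayed below 0, from -0.71 with voom to -0.33 with array weights, and from -0.91 to -0.16 when 1 library was left out.

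Of 34 named genes 23 kept their sign under every alternative, and the lowest adjusted p of any of them was 0.913. The sign turned with array weights for Rab14 (0.15), Rab30 (-0.0048), Rab26 (-0.14) and Dmxl2 (0.096), with scaling to the library total for Rab30 (-0.016), with voom for Rab30 (-0.036) and with the deposited values as they stand for Dmxl2 (0.063). With 1 library left out it turned for 11 genes. Their ranges were -0.74 to 0.51 for Rab14, -0.35 to 0.37 for Rab30, -0.0054 to 0.84 for Rab3a, -0.16 to 0.57 for Rab26, -2.18 to 0.13 for Rab36 and -3.80 to 0.57 for Rab40b. They were -0.55 to 0.33 for Rab7, -2.54 to 0.97 for Rab11a, -0.24 to 0.28 for Dennd6b, -0.21 to 0.24 for Dmxl2 and -0.18 to 0.71 for Bicd1. The cause was not tested. Counted in reads without regard to length, the median share of Rab3a in its family was 64.5% in Day 0 and 68.5% in Recurring libraries, against 86.6% and 90.8% per kilobase. At totals of 8374986 to 14887866 reads, 18 of the 43 tested Rab genes were at 0 in at least 1 library. The deepest library, Recurring replicate 1, had 8 of the 43 at 0, and the shallowest, Day 0 replicate 3, had 7. The number was 2, 0 and 6 in Day 0 replicates 1, 2 and 4. In Recurring replicates 2, 3 and 4 it was 2, 2 and 6. The part of depth in these counts was not tested.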
